A study of Mus musculus with 2 samples.

Results

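Alveolar type 1 (AT1) cells were taken from 2 mouse lung sections with small cell lung cancer (SCLC), in which Xenium In Situ counted transcripts of a probe panel inside segmented cells. A cell was called AT1 where it held 20 or more gene transcripts, at least 4 transcripts of *Ager* and *Aqp5* together and more of these than of the alveolar type 2 (AT2) genes *Lamp3*, *Mlc1*, *Hc* and *Lrp2*. It could hold at most 1 transcript of the neuroendocrine (NE) genes *Chga*, *Chgb*, *Scg5*, *Snap25* and *Celf3* and at most 4 of the endothelial genes *Pecam1*, *Sox17*, *Gpihbp1*, *Clec14a* and *Calcrl*. This gate held 14691 of 493524 cells, 7895 in RPR2 and 6796 in CRPR2. RPR2 mice were C57BL/6 animals whose floxed *Rb1*, *Trp53* and *Rbl2* alleles were deleted by adenoviral Cre given into the trachea at 10 weeks of age. CRPR2 mice carried the same alleles with a germline *Cracd* KO in every cell, and lungs were taken 6 months after Cre according to the methods. The sources used here give more than 1 name for the Cre virus, so the cells it reaches are not stated here. Both sections came from 1 paraffin block on 1 slide, and mice of both sexes were used in the study. As each genotype had only 1 section, differences were not tested, and a difference between sections cannot be told apart from a difference between 2 mice or 2 pieces of tissue.

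AT1 cells are the thin, flat cells that cover most of the gas exchange surface, pressed against the capillary endothelium through a shared basement membrane. *Ager* encodes a receptor of the basal membrane of these cells, and *Aqp5* a water channel of their apical side. AT2 cells make surfactant and are the usual source of new AT1 cells after injury. AT1 cells are known for YAP and TAZ activity, which acts through TEAD factors on target genes such as *Ccn1* and *Ccn2*, and for VEGFA signals to the capillaries.

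The regulatory sequence shown is the stretch upstream of *Ccn1*, the gene with the largest AT1 over AT2 ratio in the smaller of its values from both sections (values follow). It covers the 250 bases before the start site, GRCm38.p6 chr3:145649986-145650235, minus strand, from RefSeq, with capitals for the letters CATTCC, the core of TEAD sites. The match begins 103 bases before the start site.
Ccn1 upstream: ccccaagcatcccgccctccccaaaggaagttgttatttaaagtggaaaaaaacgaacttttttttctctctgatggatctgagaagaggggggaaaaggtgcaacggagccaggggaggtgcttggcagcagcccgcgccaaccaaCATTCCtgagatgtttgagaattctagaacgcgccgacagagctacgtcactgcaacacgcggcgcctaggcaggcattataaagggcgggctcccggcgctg
CATTCC or its reverse complement GGAATG stood in 12.6% of the 32851 upstream stretches of this length in the table. It stood in 4 of the 23 stretches of the 16 matched genes that were 2-fold or more higher in AT1 than in AT2 cells (17.4%), those of *Ccn1*, *Fxyd3*, *Mylk3* and *Pmp22*. A match describes these letters only, and binding was not measured here.

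At the depth limit, 152915 cells remained in RPR2 and 340609 in CRPR2, from sections of 16313950 and 37348565 gene transcripts. A cell of the AT1 gate had a median of 107 transcripts in RPR2 and 129 in CRPR2. Levels are given as CPM, the transcripts of a gene per 1000000 gene transcripts of all cells in a gate. The AT1 gate rested on 886038 transcripts in RPR2 and 938932 in CRPR2. In this gate the 20 negative control probes averaged 2.37 CPM (RPR2) and 2.50 CPM (CRPR2) and reached at most 12.4 CPM and 6.39 CPM. Intervals in parentheses are 95% intervals, exact Poisson for CPM, exact Clopper-Pearson for shares and exact conditional for ratios. They hold counting error alone and leave out the spread from mouse to mouse. Probes differ in efficiency, so levels are compared between cells and sections and never between genes. The sections shared 8 cell names, which the segmentation gives within each section. Doublets were not called, and transcripts of a neighbor that fall inside a cell outline were counted in that cell.

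AT1 cells were chosen by their counts of the 16 genes of the rule, whose values are therefore a description. *Ager* had a median of 6 transcripts per AT1 cell in RPR2 and 5 in CRPR2. *Aqp5* had a median of 1 in both, and both genes were seen together in 66.6% of AT1 cells in RPR2 and 72.3% in CRPR2. Cells with *Aqp5* and no *Ager* numbered 29 and 96. A total of 19917 RPR2 cells and 19215 CRPR2 cells reached 4 transcripts of *Ager* and *Aqp5*. Of these, the rule kept 39.6% in RPR2 and 35.4% in CRPR2. It left out 44.8% in RPR2 and 25.4% in CRPR2 for endothelial transcripts, 22.3% and 32.9% for AT2 transcripts, and 1.32% and 16.9% for NE transcripts, and a cell could fail more than 1 limit. The limits thus removed different cells in the 2 sections. In the cells kept, 77.3% of RPR2 cells and 56.1% of CRPR2 cells still held an endothelial transcript, 29.3% and 54.2% an AT2 transcript, and 2.67% and 16.5% a single NE transcript. At the edge of the rule, 1485 RPR2 cells and 1654 CRPR2 cells had exactly 4 transcripts of *Ager* and *Aqp5*. A further 2165 and 2573 had 3 and stood just outside. *Cav1* was at 23910 CPM (RPR2) and 9100 CPM (CRPR2) just inside and at 18412 CPM and 7857 CPM just outside.

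AT1 cells made up 5.16% of the RPR2 section (5.05% to 5.28%) and 2.00% of the CRPR2 section (1.95% to 2.04%), a log2 ratio of -1.37 (-1.42 to -1.32). NE cells, taken as cells with 2 or more transcripts of the NE genes, made up 10.7% of RPR2 and 59.6% of CRPR2, and enter the denominator of these shares. Among cells outside the NE gate, AT1 cells were 5.78% in RPR2 (5.66% to 5.91%) and 4.94% in CRPR2 (4.83% to 5.06%), a log2 ratio of -0.23 (-0.27 to -0.18). With 0 endothelial transcripts allowed, this last ratio turned to 0.72, so no direction is drawn from it. AT2 cells, gated in the same way from their own 4 genes, were 5.20% of all cells in RPR2 and 3.57% in CRPR2 (log2 ratio -0.54), and 5.82% and 8.83% of cells outside the NE gate (log2 ratio 0.60). Endothelial cells were 32.0% and 18.4% of these cells. The RPR2 section held 0.993 AT1 cells per AT2 cell and the CRPR2 section 0.560 (log2 ratio -0.83, -0.87 to -0.78). This ratio was below 0 under each alternative gate, between -0.71 and -1.30. The other *Ager* and *Aqp5* limits changed the AT1 cells only and left the AT2 cells as they were. The same holds for a pair of gates chosen after seeing the data. These required *Cav1* (-1.30) or limited *Gabrp*, *Upk3a*, *Scgb3a1* and *Muc5b* (-1.27) in AT1 cells, so their values follow from the AT1 cells removed. AT1 cells per endothelial cell went the other way in the main gate, with 0.181 in RPR2 and 0.269 in CRPR2 (log2 ratio 0.57). Positions were not used here, so the share of tumor and of open lung in each section was not measured.

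AT1 and AT2 cells were then compared within each section, to see which other panel genes separate the gates. Genes of the rule were left out, and a gene was counted where it reached 100 CPM in either gate of both sections and differed 2-fold or more in both. Of 275 genes, 20 were higher in AT1 cells (7.27%) and 14 in AT2 cells (5.09%). *Cav1*, the main protein of caveolae, which are dense in AT1 cells, reached 41312 CPM (40890 to 41737) in RPR2 AT1 cells and 20191 CPM (19905 to 20480) in CRPR2 AT1 cells. AT2 cells held 11093 CPM and 5855 CPM, so AT1 cells were 3.72-fold and 3.45-fold higher. Endothelial cells, also rich in caveolae, held 43263 CPM and 35015 CPM of *Cav1*, and NE cells 453 and 599. AT1 cells were thus close to the endothelial level in RPR2 and 1.73-fold below it in CRPR2. In AT1 cells with 0 endothelial transcripts, a split on genes of the rule that is given as a description, *Cav1* was at 34776 CPM (RPR2) and 11135 CPM (CRPR2). The part of *Cav1* transcripts from neighboring endothelial cells was not tested. *Cavin2*, a partner of *Cav1* in the caveolar coat, was 19606 and 10189 CPM in AT1 cells against 7190 and 3931 CPM in AT2 cells. Like *Cav1*, it was not higher in AT1 than in endothelial cells of both sections.

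**Figure D1:**
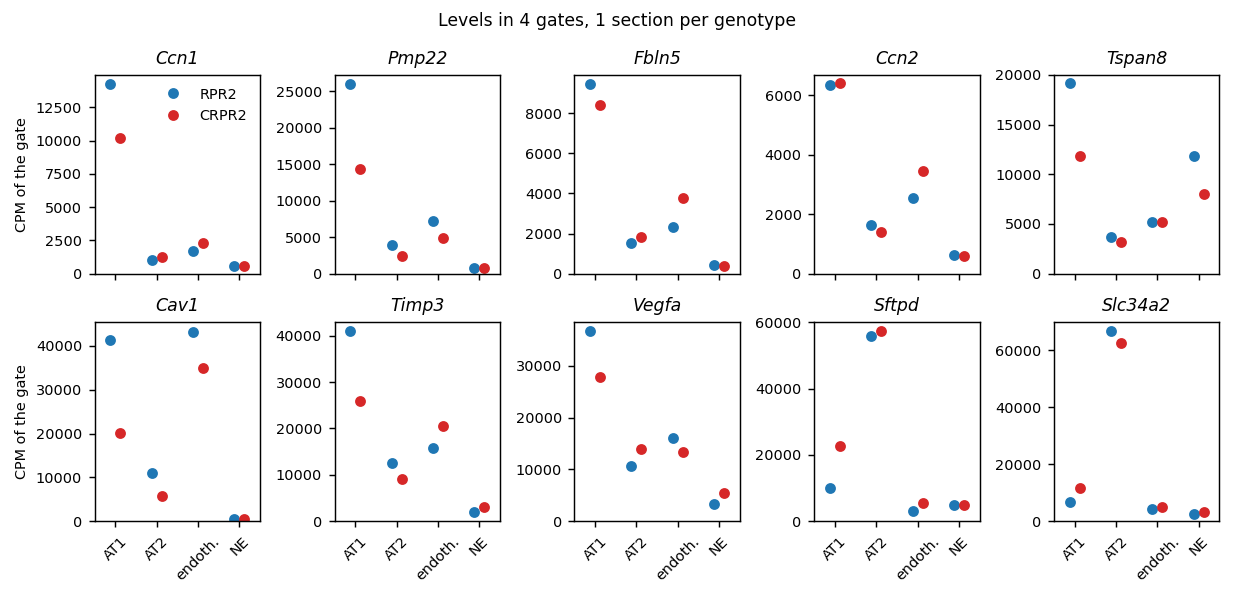
Level of 10 genes (CPM, linear axis from 0) in the AT1, AT2, endothelial and NE gates, with 1 point per section, blue for RPR2 and red for CRPR2. *Ccn1*, *Pmp22* and *Fbln5* stood highest in the AT1 gate of both sections, *Cav1* was as high or higher in endothelial cells, and *Sftpd* and *Slc34a2* stood highest in the AT2 gate.

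Of the 23 genes listed for AT1 cells beside the rule, 4 were among the genes analysed here, and all 4 were higher in AT1 than in AT2 cells in both sections. Besides *Cav1*, these were *Vegfa*, *Timp3* and *Tspan8*. *Vegfa*, the growth factor of capillary endothelium, reached 36726 CPM (RPR2) and 27849.7 CPM (CRPR2) in AT1 cells and 10725 and 13851 CPM in AT2 cells. Its AT1 over AT2 ratio was 3.42-fold in RPR2 and only just past the limit in CRPR2, at 2.01-fold. *Timp3*, an inhibitor of matrix proteases, was at 40959.9 and 25882 CPM in AT1 cells against 12530.2 and 9217 CPM in AT2 cells. *Tspan8*, a tetraspanin, was 5.26-fold and 3.74-fold higher in AT1 than in AT2 cells. Other markers listed for AT1 cells (*Hopx*, *Pdpn*, *Rtkn2*, *Akap5*, *Clic5* and *Cldn18*) were not analysed here.

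*Ccn1* and *Ccn2*, both targets of YAP and TEAD, were among the 10 genes with the highest AT1 over AT2 ratios. Of 13 analysed signalling target genes, these 2 were 2-fold or more higher in AT1 cells, against 7.27% of all genes. The 13 genes had a median log2 AT1 over AT2 ratio of 0.48 in RPR2 and 0.41 in CRPR2, against 0.18 and 0.27 over all 275 genes. *Ccn1*, whose upstream sequence is printed above, reached 14269 CPM (14022 to 14520) in RPR2 AT1 cells and 10214 CPM (10010 to 10420.2) in CRPR2 AT1 cells. AT2 cells held 1043 and 1285 CPM, endothelial cells 1699 and 2308 CPM and NE cells 549 and 539.6 CPM. *Ccn1* was therefore 13.7-fold higher in AT1 than in AT2 cells in RPR2 (log2 3.77, 3.68 to 3.87) and 7.95-fold in CRPR2 (log2 2.99, 2.92 to 3.06). *Ccn2* was 3.88-fold and 4.61-fold higher, from 1636 and 1388 CPM in AT2 cells to 6341 and 6404 CPM in AT1 cells. Both genes code for matricellular proteins. *Ccn1* was higher in AT1 than in endothelial cells too, with log2 ratios of 3.07 in RPR2 and 2.15 in CRPR2.

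The other genes higher in AT1 than in AT2 cells differed in their known roles. *Pmp22*, a tetraspan membrane protein, was at 26017 and 14320 CPM (AT1, RPR2 and CRPR2) against 3857 and 2367 CPM (AT2), or 6.75-fold and 6.05-fold higher. *Fbln5*, needed for elastic fibers, was 6.23-fold and 4.64-fold higher. *Krt19*, a keratin of simple epithelia, was 5.91-fold and 3.17-fold higher, and *Egfr*, the epidermal growth factor receptor, 5.45-fold and 2.96-fold. With each cell thinned to 50 transcripts, *Egfr* was present in 27.9% and 18.7% of AT1 cells and in 45.3% and 49.9% of NE cells. *F3*, tissue factor, was 4.06-fold and 2.82-fold higher. *Cyp4b1*, *Mylk3*, *Runx2*, *Anxa8*, *Pdgfb*, *Nbl1*, *Cryab* and *Fxyd3* completed the 20. Of the 20 genes, 16 were also higher in AT1 than in endothelial cells in both sections. For 13 the AT1 gate was the highest of the 4 gates in both sections, and for 6 (*Ccn1*, *Cryab*, *Fbln5*, *Krt19*, *Pmp22* and *Vegfa*) it was 2-fold or more above each of the other gates.

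All 4 analysed genes of the AT2 list outside the rule were among the 14 genes that were higher in AT2 cells. *Sftpb* and *Sftpd*, which code for surfactant proteins, *Slc34a2*, a phosphate transporter, and *Muc1*, a membrane mucin, were 5.66-fold, 5.58-fold, 9.92-fold and 6.36-fold lower in AT1 than in AT2 cells of RPR2. In CRPR2 they were 3.40-fold, 2.53-fold, 5.41-fold and 2.14-fold lower. *Ppp1r1a*, an inhibitor of protein phosphatase and the gene with the largest gap in the smaller of both sections, was 7.30-fold and 5.99-fold lower in AT1 cells. *Sfta2*, *Tmem213*, *Muc20*, *Muc4*, *Cldn2*, *Slc5a1*, *Aif1l*, *Tfcp2l1* and *Cd36* completed the 14, with *Sfta2*, a surfactant-associated gene, 7.98-fold and 3.20-fold lower in AT1 cells. For the 4 listed genes each gap was narrower in CRPR2, where AT1 cells held 22689.6 CPM of *Sftpd* against 10029 CPM in RPR2 while AT2 cells held 57372 and 55929 CPM. The AT1 cells that held AT2 transcripts of the rule were also more frequent in CRPR2 (54.2% against 29.3%), and the part of AT2 transcripts from neighbors or mixed cells was not tested. *E2f1*, a cell cycle transcription factor, was past 2-fold in RPR2 and below it in CRPR2, a difference that was not tested, with 2071 CPM in AT1 and 345 CPM in AT2 cells (log2 2.59) against 2461 and 1324 CPM in CRPR2 (log2 0.89).

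**Figure D2:**
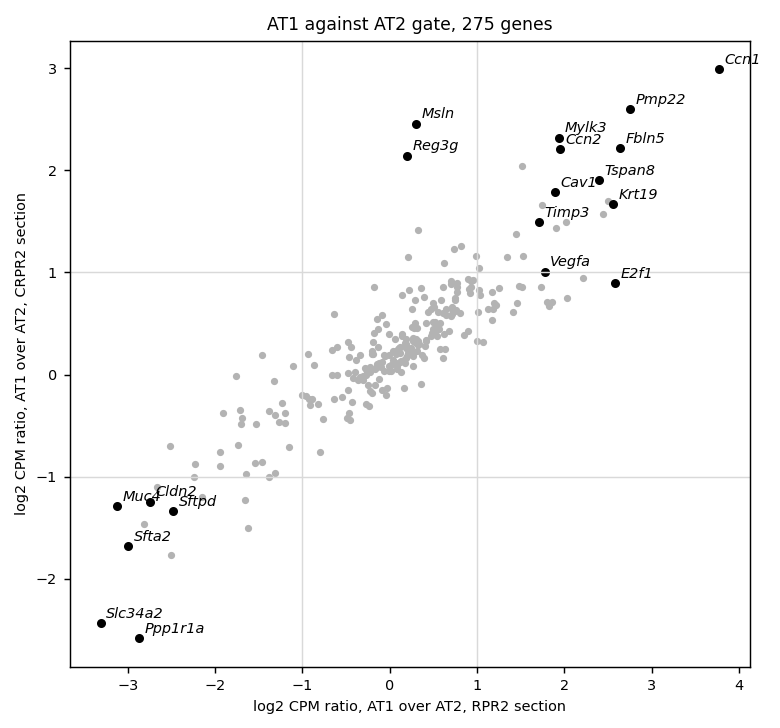
Log2 ratio of CPM in AT1 over AT2 cells for 275 genes, RPR2 on the x axis and CRPR2 on the y axis, with lines at a 2-fold difference. *Ccn1* lies at 3.77 and 2.99 and *Slc34a2* at -3.31 and -2.44, while *Msln* and *Reg3g* are past 2-fold in CRPR2 only.

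Between the sections, 101 of 314 genes that reached 100 CPM in AT1 cells were 2-fold or more higher in CRPR2 (32.2%) and 23 were 2-fold or more higher in RPR2 (7.32%). Over the 314 genes the CRPR2 over RPR2 ratio had a median of 0.30 on the log2 scale, and a list is read against that value and those shares. Over the same 314 genes, 82 were 2-fold or more higher in CRPR2 in AT2 cells, 83 in endothelial cells and 15 in NE cells, and 28, 10 and 24 were higher in RPR2. All gates come from the same sections, so their values are given side by side below and do not set AT1 cells apart.

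*Upk3a*, a urothelial plaque protein, had the highest ratio of the 314 genes. It rested on 114 CPM in RPR2 AT1 cells against 3995 CPM in CRPR2 AT1 cells, 35.0-fold higher (log2 5.13, 4.85 to 5.43). The tight junction gene *Cldn2* was at 19.2 and 493 CPM (log2 4.68). The mucin genes *Muc5ac* and *Muc5b* were at 20.3 and 412 CPM (log2 4.34) and at 131 and 2323 CPM (log2 4.15). *Scgb3a1*, a secretoglobin of airway cells, was at 245 and 4114 CPM (log2 4.07). *Gpa33*, *Atp6v1b1*, *Sox9* and *Scg2* followed, with log2 ratios of 3.79, 3.78, 3.61 and 3.60. The ratios were also taken without a part of the gate described below, the cells with 2 or more transcripts of *Gabrp*, *Upk3a*, *Scgb3a1* and *Muc5b*. Without those cells *Sox9* was at 0.92 and no longer past 2-fold, *Cldn2* was at 1.41, *Muc5ac* at 1.30 and *Atp6v1b1* at 1.58, while *Gpa33* was at 2.37 and *Scg2* at 3.11. *Upk3a*, *Muc5b* and *Scgb3a1*, which were used to choose those cells, were at 2.48, 0.81 and 0.80. In AT2 cells *Upk3a*, *Cldn2*, *Muc5b* and *Scgb3a1* had log2 ratios of 3.48, 3.19, 3.93 and 3.78, and in endothelial cells 3.74, 2.05, 1.91 and 2.30. Of the 7 analysed airway secretory genes, 6 reached the CPM limit. All 6 were 2-fold or more higher in CRPR2 (median log2 2.77), against 32.2% of all genes (median 0.30). Without the cells just described, *Reg3g* (-0.19), *Agr2* (0.20), *Spdef* (0.97), *Muc5b* and *Scgb3a1* were within 2-fold. The summed level of this list was 911 CPM (RPR2) and 9996 CPM (CRPR2) in AT1 cells, and the gene with the most transcripts counted, which depends on the probes too, was *Retnla* in RPR2 and *Scgb3a1* in CRPR2. In AT2 cells the same sums were 1364 and 10289 CPM, in endothelial cells 516 and 1659 CPM and in NE cells 6941 and 6650.0 CPM.

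*Gria2*, a glutamate receptor subunit listed among the NE markers and not used by the rule, was at 18.1 CPM in RPR2 AT1 cells and 129 CPM in CRPR2 AT1 cells (log2 2.84, 2.08 to 3.69). NE cells themselves held 5581 and 5454 CPM of *Gria2*. NE cells were 10.7% of the RPR2 section and 59.6% of the CRPR2 section, and the part of NE transcripts from neighboring cells was not tested.

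Cell cycle genes were higher in AT1 cells of CRPR2 in 6 of 7 cases, against 32.2% of all genes (median log2 3.14 against 0.30). *Mki67*, a marker of cycling cells, was at 380 CPM (RPR2) and 3534 CPM (CRPR2, log2 3.22, 3.05 to 3.38). *Top2a*, which untangles DNA in dividing cells, was at 254 and 2232 CPM (log2 3.14). *Cenpf* and *Ube2c*, both of mitosis, had log2 ratios of 3.33 and 3.55, *Ezh2*, a histone methyltransferase, 1.89, and *Pclaf*, of DNA replication, 1.17. *Pclaf* was within 2-fold with *Ager* and *Aqp5* at 10 or more (0.72), after thinning (0.81), where *Cav1* was required (0.84) and without the *Gabrp*, *Upk3a*, *Scgb3a1* and *Muc5b* cells (0.73). *E2f1* was the exception at 0.25. After thinning each cell to 50 transcripts, which left out 383 RPR2 and 122 CRPR2 cells of the gate, 2.02% of AT1 cells in RPR2 (1.72% to 2.37%) and 16.5% in CRPR2 (15.6% to 17.4%) held a *Mki67* or *Top2a* transcript. The log2 ratio was 3.03 (2.78 to 3.28), and without thinning the shares were 3.38% and 28.1%.

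**Figure D3:**
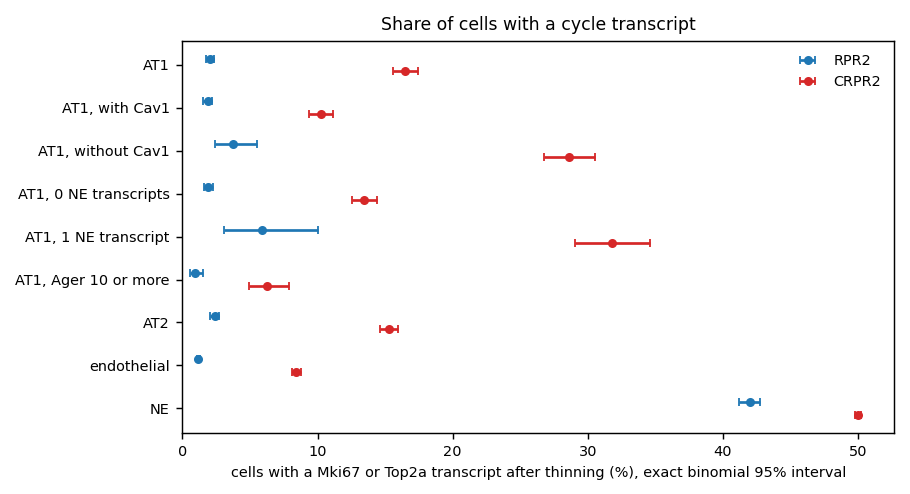
Share of cells (%) with a *Mki67* or *Top2a* transcript after thinning to 50 transcripts, for the AT1 gate, parts of it and 3 other gates, with 1 point per section and exact binomial 95% intervals. AT1 cells lie at 2.02% in RPR2 and 16.5% in CRPR2, and the CRPR2 point is to the right of the RPR2 point in each row.

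The other gates held such transcripts too. Endothelial cells held such a transcript in 1.18% (RPR2) and 8.44% (CRPR2) of cells, AT2 cells in 2.37% and 15.3%, and NE cells in 42.0% and 49.98%. The median depth was 104 and 110 transcripts in endothelial cells and 115 and 138 in AT2 cells. AT1 cells with 0 NE transcripts held one in 1.92% and 13.5% of cells, and those with 1 NE transcript in 5.85% and 31.8%. NE transcripts were part of the rule, so this split is a description. Whether AT1 cells were cycling was not tested, nor was the part of transcripts from neighboring NE cells.

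Of the 4 listed AT1 genes, 1 was 2-fold or more higher in RPR2, against 7.32% of all genes. Their log2 ratios were -1.03 (*Cav1*), -0.70 (*Tspan8*), -0.66 (*Timp3*) and -0.40 (*Vegfa*), with a median of -0.68 against 0.30. These 4 were below 0 under each alternative gate and scaling, but *Cav1* was often no longer past 2-fold. It was at -0.87 and -0.62 with *Ager* and *Aqp5* at 6 or 10 or more, -0.83 with *Ager* alone, -0.72 with no endothelial limit and -0.84 with 0 NE transcripts. With the gate set after thinning it was at -0.66, without the cells chosen on *Gabrp*, *Upk3a*, *Scgb3a1* and *Muc5b* at -0.58, and where *Cav1* itself was required at -0.56. *Pmp22* had a ratio of -0.86 and *Ccn1* -0.48. No direction is drawn for *Fbln5* or *Ccn2*, which changed sign with the gate. *Fbln5* (-0.17) turned to 0.13 at that limit of 10, 0.08 with no endothelial limit, 0.12 after thinning, 0.11 where *Cav1* was required and 0.17 without the *Gabrp*, *Upk3a*, *Scgb3a1* and *Muc5b* cells. *Ccn2* (0.01, -0.04 to 0.07) ranged from -0.52 with 0 endothelial transcripts to 0.42 at a limit of 10, and was at 0.40 without those cells. *Krt19* (-0.04) and the ribosomal *Rps18* (0.01) had ratios near 0. Of the 4 genes of the AT2 list, 2 were 2-fold or more higher in CRPR2, against 32.2% of all genes (median 0.98). These were *Muc1*, at 3559.7 and 13106 CPM, and *Sftpd*, at 10029 and 22689.6 CPM, while *Sftpb* (0.53) and *Slc34a2* (0.78) were within 2-fold. With 0 endothelial transcripts allowed, *Sftpd* was at 0.73 and within 2-fold. In AT2 cells *Muc1* and *Sftpd* had ratios of 0.31 and 0.04.

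Among the genes 2-fold or more higher in RPR2, *Ms4a1*, of B cells, was at 349.9 CPM in RPR2 AT1 cells and at 71.4 CPM in CRPR2 AT1 cells (log2 -2.29). Endothelial cells of RPR2 held 281 CPM of it. *Igfbp6*, an inhibitor of insulin-like growth factor 2, was at 7669 and 2172 CPM (log2 -1.82), *Itga8*, an integrin of alveolar fibroblasts, at 7554 and 2981 CPM (log2 -1.34) and *Upk3b*, of mesothelium, at 589 and 182 CPM (log2 -1.69). Of 3 mesothelial genes, *Upk3b* was the 1 higher in RPR2, with *Msln* (1.09) and *Upk1b* (2.75) 2-fold or more higher in CRPR2. Of the 4 fibroblast genes at the CPM limit, *Itga8* was the 1 higher in RPR2, and the median was 0.29. Over all 314 genes, 7.32% were 2-fold or more higher in RPR2 and 32.2% in CRPR2, with a median of 0.30. *Itga8* was within 2-fold with *Ager* and *Aqp5* at 10 or more (-0.77), with the gate set after thinning (-0.87), without the *Gabrp*, *Upk3a*, *Scgb3a1* and *Muc5b* cells (-0.90) and where *Cav1* was required (-0.98). *Fibin*, *Ppbp*, *Prg2*, *Fxyd1* and *Tnnc1* were also among the 10 lowest. At the same limit of 10, *Fibin* (-0.71), *Ppbp* (-0.85) and *Fxyd1* (-0.90) were within 2-fold, as were *Fibin* (-0.91) and *Prg2* (-0.77) after thinning and *Prg2* (-0.92) at 6 or more. In AT2 cells *Igfbp6*, *Itga8* and *Upk3b* had ratios of -1.86, -1.26 and -2.28.

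**Figure D4:**
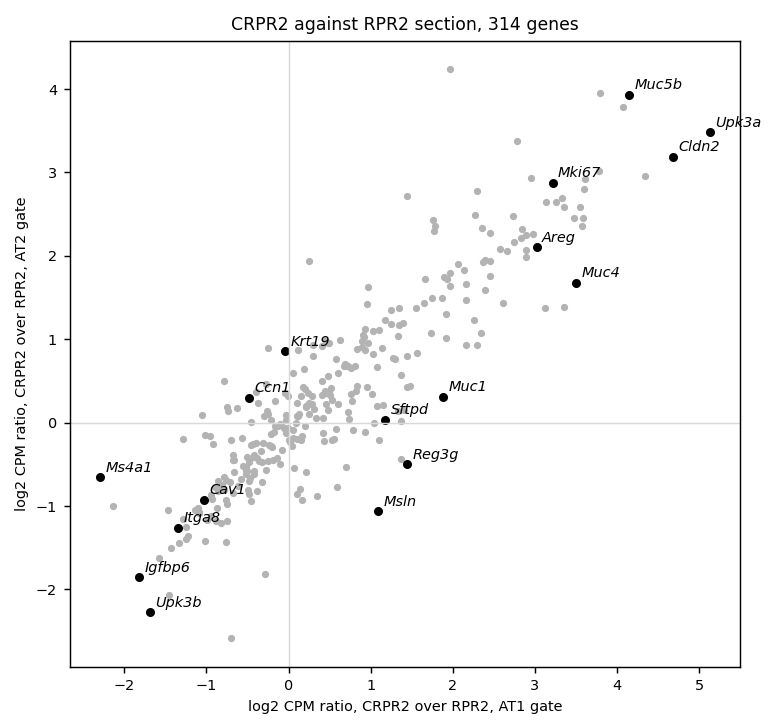
Log2 ratio of CPM in CRPR2 over RPR2 for 314 genes, in AT1 cells on the x axis and in AT2 cells on the y axis. *Upk3a* lies at 5.13 and 3.48 and *Igfbp6* at -1.82 and -1.86, while *Msln* lies at 1.09 in AT1 and -1.06 in AT2 cells.

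Genes of the other lists were mixed. Of 9 transitional alveolar genes, *Areg*, a ligand of the EGF receptor (245 and 1987 CPM, log2 3.02), and *Cldn4*, of tight junctions (325 and 1553 CPM, log2 2.26), were 2-fold or more higher in CRPR2, and *Krt8* (0.62), *Cdkn1a* (-0.05), *Mdm2* (-0.18), *Bax* (0.15), *Trp53* (0.05), *Hif1a* (0.73) and *Krt19* were not. Over all 314 genes, 32.2% were 2-fold or more higher in CRPR2 and 7.32% in RPR2. None of 10 growth and vessel factors and none of 3 ribosomal genes were past 2-fold. The floxed genes *Rb1* (3345 and 3584 CPM) and *Trp53* (1647 and 1707 CPM) were close between sections, and probe positions relative to the deleted exons were not used here, so these values do not check the genotype.

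Markers of other cells in the AT1 gate were mixed between sections, and their part in the ratios above was not tested. Over all 314 genes, 32.2% were 2-fold or more higher in CRPR2 and 7.32% in RPR2, and the counts below are read against these shares. Of 7 myeloid genes at the CPM limit, 4 were 2-fold or more higher in CRPR2. Their list summed to 2255 CPM (RPR2) and 5456 CPM (CRPR2), with 757 and 2773 CPM for *Cd68*, a lysosomal gene of macrophages. Endothelial markers outside the rule (*Kdr*, *Plvap* and *Ly6c1*) summed to 7604 and 6352 CPM against 38467 and 36901 CPM in endothelial cells. Fibroblast markers summed to 14072 and 11361 CPM, and ciliated markers to 1244 and 740.2 CPM, of which *Ccdc153* (log2 -1.29) was past 2-fold but within it with *Ager* and *Aqp5* at 3 or more (-0.95) or 10 or more (-0.47), with no endothelial limit (-0.85), after thinning (-0.72) and where *Cav1* was required (-0.83). Mural markers summed to 15686 and 14684 CPM, and 1 of 4, *Rgs5* of pericytes (164 and 413 CPM, log2 1.34), was 2-fold or more higher in CRPR2. T and NK genes (0 of 5 past 2-fold) summed to 823 and 692 CPM, and neutrophil genes (0 of 3) to 1074 and 1176 CPM.

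The gate was not uniform, and more so in CRPR2. *Cav1* was missing in 8.88% of AT1 cells in RPR2 (8.26% to 9.53%) and in 34.2% in CRPR2 (33.1% to 35.3%). Cells with 2 or more transcripts of *Gabrp*, a GABA receptor subunit, *Upk3a*, *Scgb3a1* and *Muc5b* were 4.75% of the gate in RPR2 and 29.9% in CRPR2. These 4 genes were chosen after their values were seen. Among these cells *Cav1* was missing in 64.5% and 80.5%, against 6.10% and 14.5% of the remaining cells. Their *Ccn1* was at 1579 and 2067 CPM, their *Cav1* at 4918 and 2004 CPM and their *Sftpd* at 42670.1 and 32338 CPM. In both sections their *Ccn1* and *Cav1* were nearer to the levels of the AT2 gate than to those of the remaining cells, so the label of AT1 did not hold for them on these genes, and they are described here by their genes. Their *Sftpd* lay between the AT2 gate and the remaining cells in both sections, nearer to the AT2 gate in RPR2 and to the remaining cells in CRPR2. *Scgb3a2*, a secretoglobin of airway epithelium, was at 70059 CPM (RPR2) and 37494 CPM (CRPR2) in them.

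In the remaining cells, 95.3% of the gate in RPR2 and 70.1% in CRPR2, *Ccn1* was at 15204 and 14373 CPM, *Vegfa* at 38578 and 31319 CPM and *Cav1* at 43993 and 29476 CPM. The gap between sections was narrower there than in the whole gate for all 3 genes. *Mki67* was at 357 and 2019 CPM and *Sftpd* at 7624 and 17764 CPM in these cells. A *Mki67* or *Top2a* transcript was present after thinning in 1.96% and 10.3% of them, against 3.21% and 30.9% of the cells with 2 or more transcripts of the 4 genes.

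The gate was also described by its *Ager* counts. *Ager* is part of the rule, and cells with 0 or 1 *Ager* transcripts entered through 3 or more of *Aqp5*, so the values by *Ager* class are a description and support no ratio given above. From cells with 0 or 1 *Ager* transcripts to those with 10 or more, *Cav1* went from 2829 to 53409 CPM in RPR2 and from 2059.9 to 38758 CPM in CRPR2. *Ccn1* went from 1095 to 20419 CPM in RPR2 and from 1782 to 20264 CPM in CRPR2. *Upk3a* went the opposite way in CRPR2, from 11434 CPM at 0 or 1 to 624 CPM at 10 or more. In the cells with 10 or more *Ager* transcripts, 1883 in RPR2 and 1086 in CRPR2, the log2 ratio of CRPR2 over RPR2 was -0.01 for *Ccn1*, -0.15 for *Vegfa*, -0.23 for *Tspan8*, -0.31 for *Timp3* and -0.46 for *Cav1*. *Upk3a* (5.39), *Mki67* (3.00) and *Sftpd* (1.53) were still past 2-fold in these cells. The *Upk3a* ratio rested on only 4 transcripts in RPR2, at 14.9 CPM (4.07 to 38.2). The highest negative control probe of the whole RPR2 gate was at 12.4 CPM. *Sftpd* was at 5841 and 16914 CPM, and a *Mki67* or *Top2a* transcript was present after thinning in 0.957% and 6.26% of cells.

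**Figure D5:**
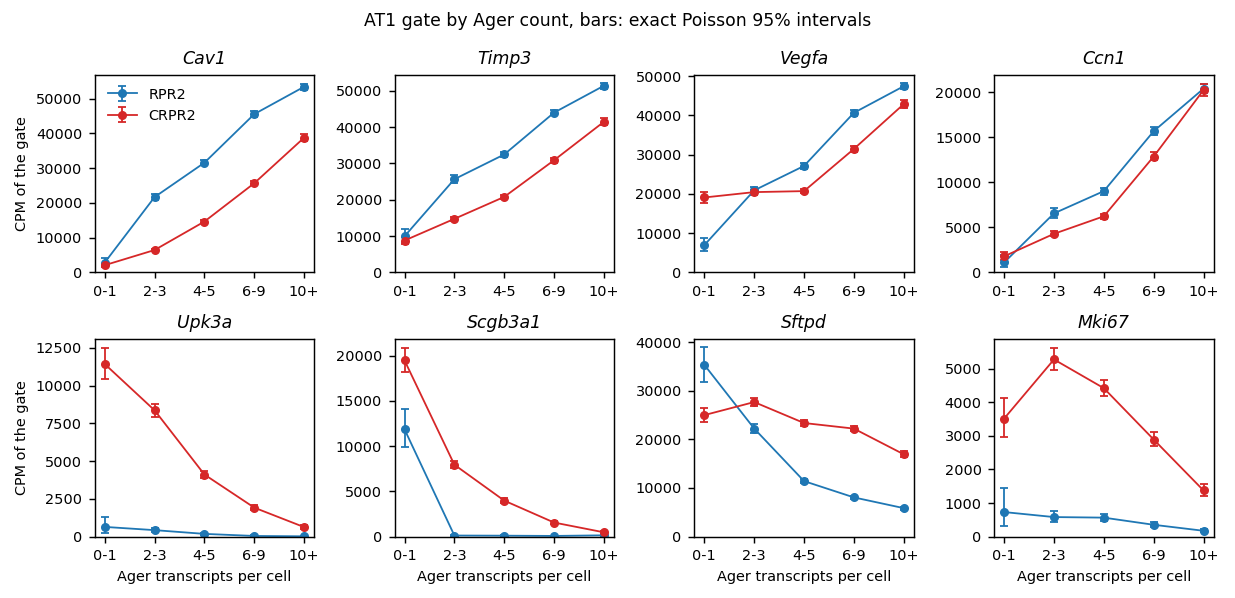
CPM of 8 genes (linear axis from 0) in AT1 cells split by their *Ager* transcripts (0 or 1, 2 or 3, 4 or 5, 6 to 9, 10 or more), blue for RPR2 and red for CRPR2, with exact Poisson 95% intervals. *Ccn1* meets at 20419 and 20264 CPM in the last class, while *Upk3a* in CRPR2 descends from 11434 to 624 CPM.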

How the data were processed

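For each section the authors deposited raw transcript counts of each feature in each segmented cell, as whole numbers, from the Xenium platform, which drew cells by expanding nuclei (the submitters' notes also list Seurat 4.4.0). Analysis used the 479 genes, with control probes as background. Cell positions and images were not used here. The gates, lists and splits were chosen with earlier results of these data known. Cells under 20 transcripts were left out. Transcripts were summed per gate, and CPM, ratios and exact 95% intervals were computed with numpy 2.4.6 and scipy 1.17.1. AT2 cells had 4 or more transcripts of their genes and more of these than of *Ager* and *Aqp5*, with the same NE and endothelial limits. Endothelial cells had 5 or more endothelial transcripts, at most 3 of *Ager* and *Aqp5*, at most 3 of the AT2 genes and at most 1 NE transcript, and NE cells had 2 or more NE transcripts. The text names the top 10 genes by ratio each way between sections and between AT1 and AT2 cells, with at least 100 CPM, and members of the lists, some of which are not reported here. For shares of cells with a transcript, cells were thinned to 50 transcripts by a seeded draw. Differences were not tested, there being 1 section per genotype. The ratio step was tested on simulated data. The thinning step was checked on cells of the RPR2 section, for the totals it left only. Tried alternatives were other gene and depth limits of the gate, gating after thinning, CPM without the genes of the rule, other CPM limits and other thinning depths. A further pair of gates was chosen after seeing the data.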

Additional observations from a re-analysis of the deposited data

Results flagged for a closer look

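*Msln*, which codes for mesothelin, differed in direction between the alveolar gates. AT1 cells held 600.4 CPM (RPR2) and 1280.2 CPM (CRPR2), a log2 ratio of 1.092 (0.94 to 1.24). It was 0.86 with *Ager* and *Aqp5* at 3 or more, 0.53 with 0 endothelial transcripts and 0.81 without the cells with 2 or more transcripts of *Gabrp*, *Upk3a*, *Scgb3a1* and *Muc5b*. In AT2 cells it was at 487 and 233 CPM, a log2 ratio of -1.06. The difference between the gates was not tested, since each gate has 1 section per genotype. The other mesothelial genes did not share this pattern, with *Upk1b* at 2.75 in AT1 and 2.16 in AT2 cells and *Upk3b* at -1.69 and -2.28.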

How the results depend on the processing

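No paired analysis was possible because each genotype had 1 section and the result comes from no test. All ratios are CRPR2 over RPR2 on the log2 scale. The AT1 share of all cells (-1.37) was -1.26, -1.57 and -1.82 with *Ager* and *Aqp5* at 3, 6 or 10 or more and -1.61 with *Ager* alone. It was -0.42 with 0 endothelial transcripts and -1.72 with no such limit, -1.59 with 0 NE transcripts and -1.95 when gated after thinning. A further pair of gates was chosen after seeing the data, one that required *Cav1* (-1.84) and one that allowed at most 1 transcript of *Gabrp*, *Upk3a*, *Scgb3a1* and *Muc5b* (-1.81). In the same order, the share outside the NE gate (-0.23) was -0.11, -0.42, -0.67, -0.47, 0.72 (reversed), -0.58, -0.45 and -1.08, then -0.70 and -0.67, and it was -0.12 at 50 transcripts per cell. AT1 cells per AT2 cell (-0.83) gave -0.71, -1.02, -1.28 and -1.07 for the *Ager* and *Aqp5* limits, -0.94 with no endothelial limit, -0.99 after thinning, and -1.30 and -1.27 for the added gates. The *Ager* and *Aqp5* limits and the added gates left the AT2 cells unchanged.

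The count of genes 2-fold higher in CRPR2 (101) lay between 75 and 120 under the alternatives. The count higher in RPR2 (23) was 14 and 7 with *Ager* and *Aqp5* at 6 or 10 or more, 53 with 0 endothelial transcripts, 14 with no such limit, 10 after thinning, 56 with no CPM limit, and 10 and 14 for the added gates. The calls were 81.5% higher in CRPR2, but 63.4% with 0 endothelial transcripts, 68.2% with no CPM limit and 92.9% at 10 or more. Genes higher in AT1 than in AT2 cells (20) numbered 41 with a limit of 3, where 18 of the 20 were kept, and 31 after thinning, where 19 were kept. Genes higher in AT2 cells (14) numbered 50 with a limit of 10, 7 with 0 endothelial transcripts, 25 after thinning, and 30 and 36 for the added gates. The cycle ratio (3.03) was 3.47 with 0 endothelial transcripts, and 2.45 and 2.39 for the added gates.

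Of 116 named or listed genes, *Lum* (main value -1.08) was 0.0057 with a limit of 10, and *Reg3g* (1.44) was -0.14 after thinning and -0.19 with at most 1 transcript of the 4 genes. No other gene past 2-fold changed direction. The causes were not tested, and each genotype had 1 section.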

Other observations

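The 29 RPR2 cells and 96 CRPR2 cells of the gate that held *Aqp5* and no *Ager* differed from the rest in both sections. *Scgb3a2*, a secretoglobin of airway epithelium, was at 91185 CPM (RPR2) and 52722 CPM (CRPR2) in them, against 7236 and 14109.6 CPM in the whole gate. *Scgb3a1* was at 27356 and 30277 CPM and *Muc5b* at 12158 and 9017 CPM. *Cav1* was at 1086 CPM, on 5 transcripts in RPR2, and at 2501 CPM in CRPR2. *Aqp5* is also known from airway glands. These cells were 0.367% of the gate in RPR2 and 1.41% in CRPR2.

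The 2610 RPR2 cells and 1788 CRPR2 cells with *Ager* and no *Aqp5* held 38455 and 23054 CPM of *Cav1*. Those with both genes held 42799.6 and 19677 CPM. *Scgb3a1* was at 77.2 CPM (RPR2) and 1776 CPM (CRPR2) without *Aqp5* and at 114 and 4281 CPM with both. The split by *Aqp5* was made after its values were seen and was not tested.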
